A study of Mus musculus with 14 samples.

Results

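The change in gene expression that comes with culture, organoid against source tissue, was compared between gallbladder and small intestine in the mouse. For each gene, the gallbladder change (gallbladder organoids minus gallbladder tissue) had the small intestine change (intestine organoids minus intestine tissue) subtracted from it. This difference of differences, the interaction, is positive where culture moved a gene higher in gallbladder than in small intestine. It drew on 8 of the 14 arrays of the study, 2 in each of the 4 groups, and on all 19938 genes whose probe set carried a single gene symbol. All values are log2 signals, so 1 unit is a doubling, and each gene is represented by its brightest probe set.

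All 4 groups came from C57BL/6 mice with no genetic change stated. Gallbladder organoids and intestine organoids are gel-embedded epithelial cultures, and the labels give 1 medium for organoids of every organ. It held EGF, FGF10 and HGF at 50 ng/mL each, 10 mM nicotinamide, N-acetylcysteine, and media conditioned with R-spondin 1 and noggin. The comparison therefore asks how 2 epithelia moved away from their tissues under 1 culture recipe. The other 6 arrays, of liver tissue, liver organoids and differentiated gallbladder organoids, entered the fit only to share its estimate of spread. The gallbladder and intestine tissue samples were extracted as tissue, with no age, sex, region or dissected layer given. The labels do not say whether the 2 arrays of a group stem from different mice or cultures. P-values thus measure the spread between these samples, which may be technical outside the gallbladder and intestine tissue groups. The 2 gallbladder tissue arrays differed in sex, and the 2 intestine tissue arrays differed in composition, as described below.

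The gallbladder stores and concentrates bile, and its lining is a single layer of absorptive, mucin-secreting columnar cells that lie on muscle and connective tissue. The small intestine is lined by enterocytes, goblet, Paneth, enteroendocrine and tuft cells, all renewed from Lgr5-expressing stem cells at the crypt base. Wnt signalling, which R-spondins amplify, keeps those stem cells dividing, and BMP signalling, which noggin blocks, drives their progeny towards maturity on the villus. A tissue sample holds muscle, stroma, vessels and blood cells that an organoid lacks, so a culture change mixes what the epithelium does with what is left behind. Fewer cells of a type and less RNA per cell cannot be told apart in such samples.

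The 2 arrays of a group correlated across genes, with r = 0.9979 for gallbladder organoids, 0.9646 in gallbladder tissue, 0.9967 in intestine organoids and 0.9717 in intestine tissue. The pooled SD between replicates was 0.098 and 0.128 log2 units in gallbladder and intestine organoids, against 0.404 and 0.368 in the tissues, so the tissue arrays limit the precision. The labels held against lineage markers. Muc1, a membrane mucin, was at 13.47 to 13.83 in gallbladder organoids and tissue and at 5.87 to 7.55 in intestine organoids and tissue. Cdx2, the transcription factor of intestinal identity, was at 7.02 to 8.74 in gallbladder samples and 11.64 to 12.36 in intestine samples. The tissue replicates differed from each other in composition and, in gallbladder, in sex. Alb, the hepatocyte protein albumin, was at 14.30 on both gallbladder tissue arrays, near the top of the scale, and the median of 25 hepatocyte genes was 11.79 in gallbladder tissue 1 and 13.26 in gallbladder tissue 2. Xist, the RNA of the inactive X chromosome, chosen after its values were seen, was at 13.51 and 5.46 on these arrays, and above 11 on all other arrays compared. Eif2s3y, a gene of the Y chromosome chosen in the same way, was at 3.72 and 10.02 there, and at 4.0 or below on all other arrays compared. The 2 gallbladder tissue arrays thus differed in sex and did not come from the same mouse. The part of sex in the gallbladder change was not tested. In intestine tissue 1 Fabp6, the bile acid carrier known from the ileum, was at 13.16, against 5.42 in intestine tissue 2. In intestine tissue 2 the median of 17 pancreatic acinar genes was 12.89, against 6.86 in intestine tissue 1.

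Culture moved many genes differently in the 2 organs. At an adjusted p below 0.05 (limma, Benjamini-Hochberg over all genes), 4450 genes, or 22.3%, were called higher in the interaction and 2847, or 14.3%, were called lower. The interaction exceeded 2 log2 units, a 4-fold difference, in 483 of the higher genes and 513 of the lower ones. Behind these stand 6514 genes (32.7%) that rose and 3040 (15.2%) that fell in gallbladder culture, against 4027 (20.2%) that rose and 3102 (15.6%) that fell in small intestine culture. Across genes the 2 culture changes correlated at r = 0.33, where genes are not independent replicates. The median interaction over all genes was 0.13, so list medians are read against that value, and list counts against the 22.3% and 14.3% of all genes. The sign of all 7297 called interactions held in each of the 16 ways of taking 1 array from every group. Those pairings reuse the arrays that gave the calls, so they add no independent support. With a minimum difference of 1 log2 unit built into the test, 445 genes were called higher and 374 lower. With 1 array left out at a time, the interaction counts lay between 2979 and 4582 for higher and between 1939 and 3235 for lower genes, and without intestine organoid 2 the genes that fell in small intestine numbered 2035.

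**Figure D1:**
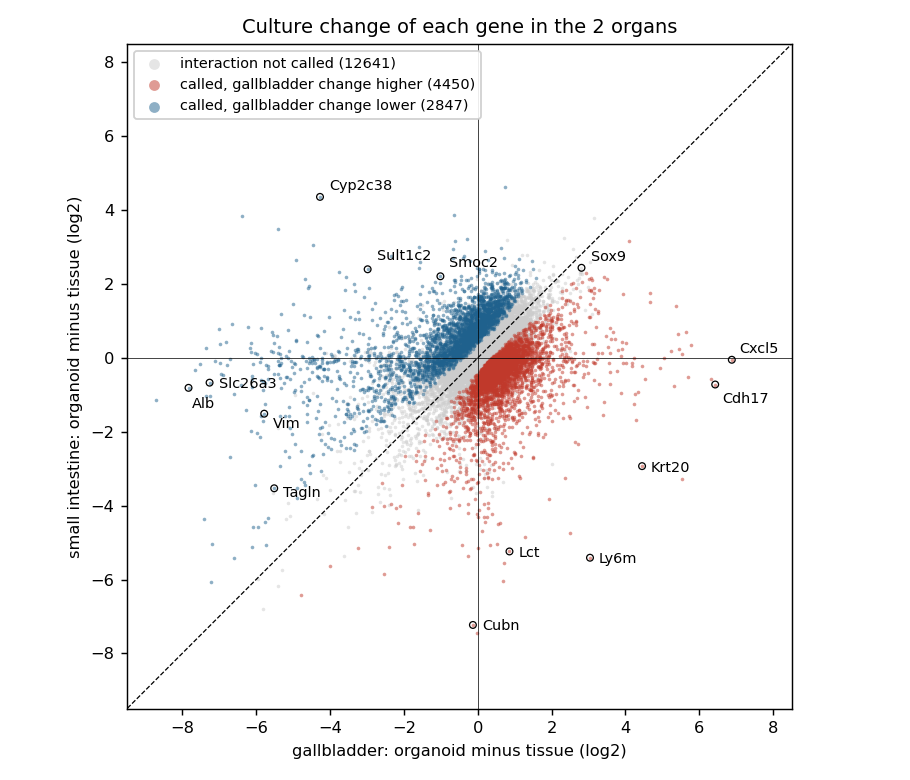
Each dot is 1 of 19938 genes, with its gallbladder culture change on the x axis and its small intestine culture change on the y axis, both in log2 units. Red dots (4450) lie below the dashed line of equal change and were called higher in the interaction, blue dots (2847) lie above it and were called lower, and the circled genes are described in the text.

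Most interaction genes moved in 1 organ. Of the 4450 higher genes, 2346 (52.7%) rose in gallbladder with no call in small intestine, and 921 (20.7%) fell in small intestine with no call in gallbladder. A further 632 (14.2%) rose in gallbladder and fell in small intestine. Of the 2847 lower genes, 933 (32.8%) fell in gallbladder alone, 910 (32.0%) rose in small intestine alone, and 308 (10.8%) fell in gallbladder and rose in small intestine. The absence of a call in 1 organ does not show that a gene stood still there. The genes in opposite motion made up 3.17% and 1.54% of all genes.

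Genes that rose in gallbladder culture and fell in small intestine culture included Ly6m, Krt20, Bst1, Lgals3, Igfbp3, Osmr, Pilra and Fos. Ly6m, a member of the Ly6 family of membrane-anchored proteins, was at 9.97 and 9.89 in gallbladder organoids, 7.03 and 6.76 in gallbladder tissue, 6.76 and 6.39 in intestine organoids, and 11.70 and 12.26 in intestine tissue. In tissue it was thus higher in intestine, and in culture higher in gallbladder, with no overlap between groups of either organ. It was also higher in liver organoids (9.18 and 9.27) than in liver tissue (6.86 and 6.79), so its rise in culture was not particular to gallbladder. It rose by 3.04 in gallbladder and fell by 5.41 in small intestine, an interaction of 8.45 ± 0.26 (SE, n = 2 arrays a group, adjusted p = 1.25e-07).

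Krt20, the keratin of mature enterocytes and other surface epithelia, was at 11.01 and 10.93 in gallbladder organoids, 7.40 and 5.64 in gallbladder tissue, 10.53 and 10.62 in intestine organoids, and 13.48 and 13.52 in intestine tissue. Organoids of both organs thus held similar levels, while the tissues stood more than 6 log2 units apart, for an interaction of 7.38 ± 0.57. Bst1, an ectoenzyme that makes cyclic ADP-ribose, was at 10.01 and 8.97 in gallbladder organoids, 6.78 and 7.23 in gallbladder tissue, 8.20 and 8.15 in intestine organoids, and 12.90 and 12.96 in intestine tissue. Lgals3, a galectin of columnar epithelia, was at 10.65 and 10.77 in gallbladder organoids, 8.84 and 8.72 in gallbladder tissue, 8.23 and 9.04 in intestine organoids, and 12.17 and 12.76 in intestine tissue. Their interactions were 7.24 ± 0.39 and 5.76 ± 0.37.

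Igfbp3, which binds insulin-like growth factors, was at 12.04 and 11.89 in gallbladder organoids, 9.11 and 10.10 in gallbladder tissue, 7.28 and 7.18 in intestine organoids, and 10.09 and 10.84 in intestine tissue. Osmr, the receptor for oncostatin M, was at 11.40 and 11.05 in gallbladder organoids, 9.45 and 9.38 in gallbladder tissue, 5.92 and 5.66 in intestine organoids, and 7.70 and 8.04 in intestine tissue. Unlike Ly6m, Osmr was higher in gallbladder than in intestine in tissue already, and culture widened that gap. Pilra, an inhibitory immune receptor, had an interaction of 4.91 ± 0.79. Fos, the immediate early AP-1 subunit, was at 10.36 on both gallbladder organoid arrays, 8.43 and 6.87 in gallbladder tissue, 7.94 and 7.91 in intestine organoids, and 10.23 and 10.28 in intestine tissue, for an interaction of 5.04 ± 1.00 (adjusted p = 0.00397).

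Of the 308 genes down in gallbladder and up in small intestine, 34 were at least 2 log2 units higher in liver tissue than in liver organoids. Over all genes this held for 970 of 19938, or 4.9%. Sult1c2, a sulphotransferase, was at 9.62 and 9.65 in gallbladder organoids, 12.79 and 12.44 in gallbladder tissue, 9.61 and 9.53 in intestine organoids, and 7.20 and 7.14 in intestine tissue. The 2 kinds of organoid thus met at 1 level from opposite sides. Its interaction was -5.38 ± 0.60 (adjusted p = 0.00017), and liver tissue held 7.66 and 9.48, below both gallbladder tissue arrays. Ttr, the thyroid hormone carrier transthyretin, was at 10.15 and 10.45 in gallbladder organoids, 13.61 and 14.13 in gallbladder tissue, 11.42 and 11.07 in intestine organoids, and 8.94 and 9.17 in intestine tissue.

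Cyp2c38 and Cyp2c70, cytochrome P450 enzymes, had interactions of -8.63 ± 1.08 and -8.89 ± 1.07. Cyp2c38 was at 3.66 and 3.41 in gallbladder organoids, 7.62 and 7.99 in gallbladder tissue, 9.83 and 9.98 in intestine organoids, and 3.88 and 7.20 in intestine tissue. Cyp2c29, with the most negative interaction of all named genes (-10.23 ± 1.99), was at 5.28 and 5.15 in gallbladder organoids, 10.15 and 13.07 in gallbladder tissue, 11.99 and 11.76 in intestine organoids, and 5.29 and 10.79 in intestine tissue, and without intestine tissue 1 its interaction was -7.48. Genes of the Cyp2c family are close in sequence, and whether their probe sets share signal was not tested. Cpn1 (a carboxypeptidase of plasma), Rgn (regucalcin) and Nrn1 (neuritin) had interactions of -7.53 ± 1.10, -7.57 ± 0.90 and -6.08 ± 0.96. Cfi, which inactivates complement, had -5.12 ± 0.63. Cyp2c38, Cyp2c70, Cpn1, Rgn, Cfi, Nrn1 and Ttr were each above 11 on both liver tissue arrays. The part of the hepatocyte genes in gallbladder tissue in their gallbladder change was not tested. The size of the gain of Cyp2c38, Cyp2c70, Cpn1, Rgn, Cfi, Nrn1 and Ttr in intestine organoids was estimated from the intestine arrays alone. The test of that gain used a spread shared with the other arrays, those of gallbladder tissue included.

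**Figure D2:**
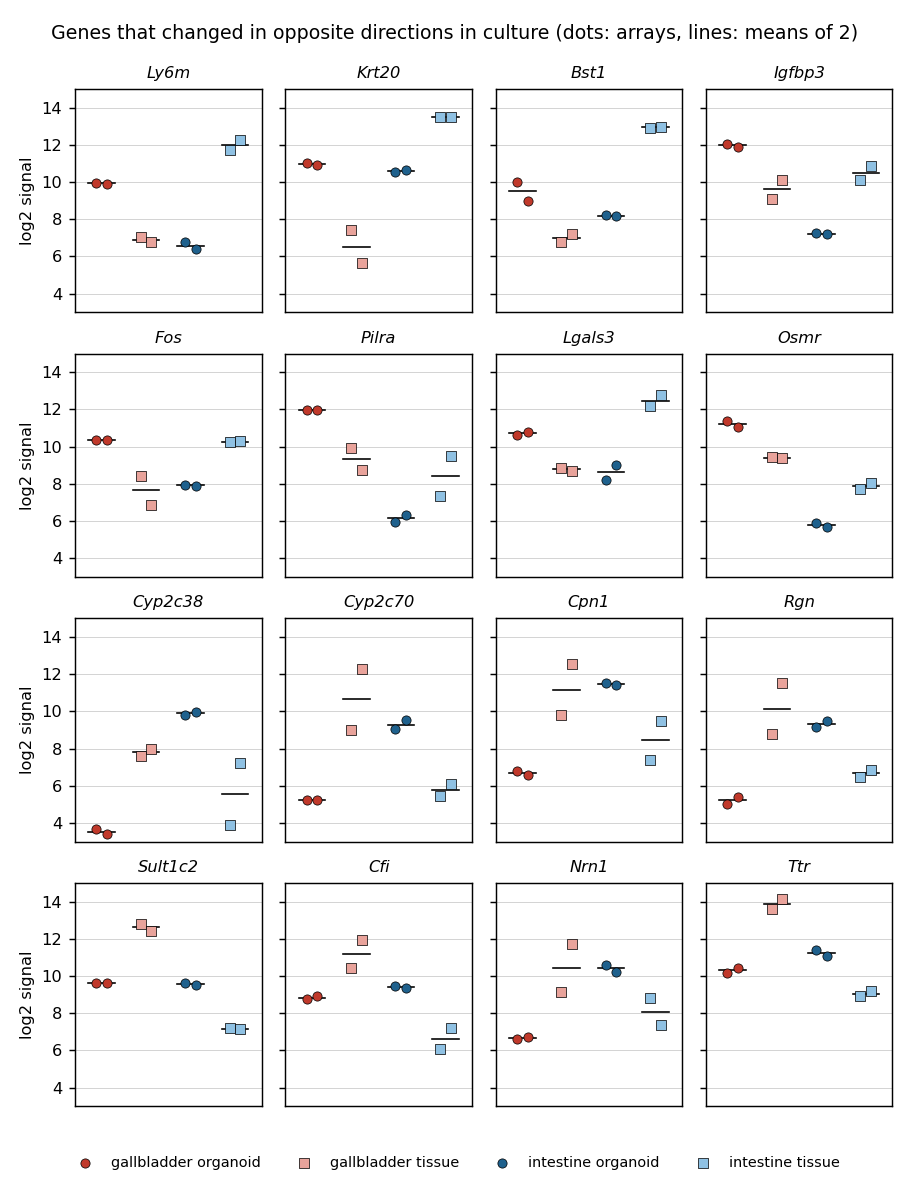
Log2 signal (y axis) of the 16 genes called in opposite directions in the 2 organs, 8 a direction, with 1 dot an array and a line at the mean of 2. In the upper 8 genes, gallbladder organoids (dark red) lie above gallbladder tissue (light red) and intestine organoids (dark blue) below intestine tissue (light blue), and in the lower 8 the order is turned round.

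The 12 largest positive interactions included genes that rose in gallbladder, such as Cdh17, Cxcl5, Reg3b and Chil1, and genes that fell in small intestine, such as Slc5a12, Cubn, Enpp7 and Aspa. Cdh17, the liver-intestine cadherin of enterocytes, was at 12.15 and 11.93 in gallbladder organoids, 5.59 and 5.63 in gallbladder tissue, 12.78 and 12.80 in intestine organoids, and 13.58 and 13.43 in intestine tissue. Gallbladder tissue alone was low, and the gallbladder change of 6.43 faced a fall by 0.72 in small intestine (interaction 7.14 ± 0.19, adjusted p = 7.6e-08). Reg3b, a secreted antimicrobial lectin, was at 13.46 and 13.40 in gallbladder organoids, 8.81 and 5.38 in gallbladder tissue, 12.47 and 12.17 in intestine organoids, and 12.99 and 12.78 in intestine tissue. Its interaction was 6.90 ± 1.10, with the wide error that 2 unlike gallbladder tissue arrays give.

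Slc5a12 (a lactate carrier), Cubn (the vitamin B12 and protein receptor cubilin) and Enpp7 (an alkaline sphingomyelinase) behaved in the other way. Slc5a12 was at 5.77 and 5.61 in gallbladder organoids, 5.95 and 5.46 in gallbladder tissue, 5.55 and 5.53 in intestine organoids, and 13.08 and 12.93 in intestine tissue. Only intestine tissue was high, and the interaction of 7.44 ± 0.21 equals a fall by 7.46 in small intestine culture. Cubn and Enpp7 fell by 7.23 and 6.04 in small intestine, with interactions of 7.10 ± 0.47 and 6.72 ± 0.73. Aspa, which cleaves N-acetylaspartate, was at 12.89 and 12.87 in gallbladder organoids, 12.42 and 11.91 in gallbladder tissue, 6.84 and 5.89 in intestine organoids, and 12.18 and 11.67 in intestine tissue, so it was kept in gallbladder culture and fell by 5.56 in small intestine culture.

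Slc5a8, a carrier of short-chain fatty acids, had the largest estimate, 8.80 ± 2.01 (adjusted p = 0.00777). It was at 11.67 and 11.62 in gallbladder organoids, 6.34 and 5.91 in gallbladder tissue, 6.81 and 6.88 in intestine organoids, and 13.26 and 6.99 in intestine tissue. The small intestine part rests on intestine tissue 1, the array with Fabp6 at 13.16. Without that array the interaction was 5.67.

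Several defence genes and neutrophil-attracting chemokines rose in gallbladder organoids. Of 23 measured innate defence genes, 11 were called higher in the interaction and 3 lower, with a median of 0.96. Of 22 chemokines, 12 were called higher and 1 lower, with a median of 1.54, and 3 lower without intestine tissue 2 or gallbladder tissue 2. Over all genes these shares were 22.3% and 14.3%. Cxcl5, a neutrophil chemokine, was at 12.85 and 12.71 in gallbladder organoids, 6.18 and 5.62 in gallbladder tissue, 5.43 and 5.60 in intestine organoids, and 5.70 and 5.44 in intestine tissue. Cxcl2 was at 10.72 and 10.65 in gallbladder organoids, 5.51 and 5.75 in gallbladder tissue, 5.64 and 5.70 in intestine organoids, and 5.45 and 5.90 in intestine tissue. Both stood at the low end of the scale in 3 of 4 groups, and their interactions were 6.93 ± 0.35 and 5.06 ± 0.54.

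Chil1, a chitinase-like lectin of inflamed epithelium, was at 12.34 and 12.07 in gallbladder organoids, 6.60 and 6.44 in gallbladder tissue, 6.80 and 6.61 in intestine organoids, and 7.29 and 7.13 in intestine tissue. Ltf, the iron-binding antimicrobial lactoferrin, was at 13.69 and 13.65 in gallbladder organoids, 9.31 and 7.12 in gallbladder tissue, 6.61 and 6.29 in intestine organoids, and 6.31 and 6.10 in intestine tissue. Lcn2, which captures bacterial siderophores, was at 14.07 and 14.15 in gallbladder organoids, 10.98 and 10.66 in gallbladder tissue, 7.72 and 7.19 in intestine organoids, and 8.15 and 8.19 in intestine tissue. Ltf and Lcn2 were already higher in gallbladder than in intestine tissue, whereas Chil1 was not. The interactions were 6.19 ± 0.22, 5.21 ± 0.72 and 4.01 ± 0.94.

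Cxcl16, a membrane-bound chemokine, was at 12.19 and 12.23 in gallbladder organoids, 10.29 and 9.55 in gallbladder tissue, 9.06 and 8.85 in intestine organoids, and 9.45 and 10.41 in intestine tissue. Ccl5, a chemokine of T cells that is also in the lymphocyte list, came to its interaction of 3.70 ± 0.50 by another path. It was at 8.14 and 8.25 in gallbladder organoids, 8.27 and 8.65 in gallbladder tissue, 7.48 and 7.23 in intestine organoids, and 10.59 and 12.06 in intestine tissue. The 3 defence genes called lower were Hp, Lyz2 and Pigr (Lyz2 and Pigr encode lysozyme and the receptor that carries antibodies across epithelium). Hp, the liver's haemoglobin-binding haptoglobin, was at 6.59 and 6.54 in gallbladder organoids, 9.95 and 13.11 in gallbladder tissue, 6.25 and 6.35 in intestine organoids, and 7.31 and 7.04 in intestine tissue. Its interaction was -4.09 ± 1.04, and -2.51 without gallbladder tissue 2, which has the higher hepatocyte signal. In a fit to the 8 arrays compared alone the call of Hp ended (adjusted p = 0.0519). Pigr was chosen after its values were seen.

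The stretch of 150 bases just before the transcription start is shown for Cxcl2 and for Cxcl1, a chemokine of the same cluster chosen after its values were seen, because both rose in gallbladder and carry a motif known to be read by NF-kB, the transcription factor of inflammatory signalling. Sequences are from RefSeq, build GRCm38.p6, 5′ to 3′, with matches to the letters GGG, any 3 bases, and TTCC on either strand in capitals, overlapping matches merged. Cxcl2 lies at chr5:90903749-90903898 and Cxcl1 at chr5:90891095-90891244, both on the plus strand.
Cxcl2: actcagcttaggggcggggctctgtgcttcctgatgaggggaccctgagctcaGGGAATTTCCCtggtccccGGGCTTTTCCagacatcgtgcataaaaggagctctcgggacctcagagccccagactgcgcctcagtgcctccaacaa
Cxcl1: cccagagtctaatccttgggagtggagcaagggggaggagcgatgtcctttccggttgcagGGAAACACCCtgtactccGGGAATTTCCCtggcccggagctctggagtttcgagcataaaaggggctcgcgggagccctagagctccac
Each window holds 3 matches, the outermost starting at base -97 in Cxcl2 and -89 in Cxcl1, counted back from the start. The motif was present in the same window of 5 of the 16 chemokine genes that the table lists, or 31.2%, against 3.05% of all 32851 promoters. Here and below, list shares were counted by gene and the share of all promoters by promoter. A match is a string of letters and no evidence of binding in these cells. Cxcl1 was at 9.26 and 9.17 in gallbladder organoids, 7.77 and 7.97 in gallbladder tissue, 7.65 and 7.48 in intestine organoids, and 7.89 and 7.83 in intestine tissue (interaction 1.64 ± 0.41, adjusted p = 0.012).

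Lists of squamous, fetal-like and junction genes also held more genes called higher than lower, as did all genes (22.3% against 14.3%). Of 20 squamous and keratin genes 13 were called higher and 0 lower, with a median of 0.95. Krt20, with the largest value in that list, is a keratin of simple epithelia. Of 15 genes of the YAP and fetal-like list 10 were called higher and 0 lower, with a median of 2.50, and of 19 claudin and junction genes 8 were called higher and 3 lower, with a median of 0.55. In the squamous list 15 genes rose in gallbladder culture and 1 rose in small intestine culture, against 32.7% and 20.2% of all genes. With the dimmest 40% of genes left out, 7 squamous genes were called higher.

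Ivl, the cornified envelope protein involucrin, was at 11.27 and 11.35 in gallbladder organoids, 6.00 and 6.14 in gallbladder tissue, 6.12 and 6.35 in intestine organoids, and 6.18 and 5.89 in intestine tissue. Sprr1a, another envelope protein, was at 13.11 and 13.09 in gallbladder organoids, 7.80 and 7.16 in gallbladder tissue, 9.03 and 9.43 in intestine organoids, and 8.11 and 8.96 in intestine tissue. Krt6a, a keratin of stressed and regenerating epithelium, was at 8.23 and 8.93 in gallbladder organoids, 5.66 and 5.77 in gallbladder tissue, 5.54 and 5.55 in intestine organoids, and 5.90 and 6.05 in intestine tissue. In these 3 genes gallbladder organoids stood clear of the 6 other arrays, and the interactions were 5.04 ± 0.23, 4.93 ± 0.45 and 3.29 ± 0.27.

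Their promoters are shown because both Ivl and Sprr1a hold the AP-1 motif TGANTCA, which reads the same on both strands and is bound by Fos and Jun proteins. The windows are as above, with matches in capitals, at chr3:92573736-92573885 for Ivl and chr3:92485882-92486031 for Sprr1a, both on the minus strand.
Ivl: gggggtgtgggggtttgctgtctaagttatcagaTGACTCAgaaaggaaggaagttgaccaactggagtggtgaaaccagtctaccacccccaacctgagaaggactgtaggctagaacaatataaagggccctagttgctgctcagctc
Sprr1a: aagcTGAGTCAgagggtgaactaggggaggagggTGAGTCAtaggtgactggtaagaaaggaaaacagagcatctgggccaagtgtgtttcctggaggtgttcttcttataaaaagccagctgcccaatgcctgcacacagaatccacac
The motif was in this window of 4 of the 10 squamous genes listed there, or 40%, against 4.24% of all promoters. Binding by Fos or Jun was not tested, and a match is no evidence of it.

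In the YAP and fetal-like list, genes known from regenerating and fetal gut, Anxa8 led. Anxa8, a membrane-binding annexin, was at 12.15 and 11.97 in gallbladder organoids, 6.25 and 6.83 in gallbladder tissue, 6.78 and 6.72 in intestine organoids, and 6.85 and 6.45 in intestine tissue. Ankrd1, a YAP target, was at 11.13 and 10.97 in gallbladder organoids, 7.08 and 7.16 in gallbladder tissue, 6.04 and 5.80 in intestine organoids, and 6.11 and 6.04 in intestine tissue. Ptgs2, the inducible prostaglandin synthase, had an interaction of 3.95 ± 0.42, made of a rise by 2.90 in gallbladder and a fall by 1.05 in small intestine. Of the 10 genes called higher, 6 rose in gallbladder and 4 had no call for a rise there. Il33, an epithelial alarmin, was one of the 4. It was at 7.42 and 7.86 in gallbladder organoids, 7.50 and 7.46 in gallbladder tissue, 6.16 and 5.79 in intestine organoids, and 9.46 and 11.13 in intestine tissue, so its interaction of 4.48 ± 0.60 is a loss in small intestine culture.

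Cldn4, a claudin that tightens junctions, was at 12.58 and 12.53 in gallbladder organoids, 8.28 and 8.27 in gallbladder tissue, 11.32 and 11.04 in intestine organoids, and 11.84 and 12.45 in intestine tissue. It rose by 4.27 in gallbladder and fell by 0.97 in small intestine, for an interaction of 5.24 ± 0.24. Cldn6, a claudin of embryonic epithelia, had an interaction of 2.54 ± 0.25 and Cldn23 one of 1.87 ± 0.21. Cldn8 ran the other way at -2.35 ± 0.52, with 9.57 and 9.55 in gallbladder organoids, 9.53 and 9.02 in gallbladder tissue, 9.92 and 9.22 in intestine organoids, and 7.56 and 6.30 in intestine tissue.

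**Figure D3:**
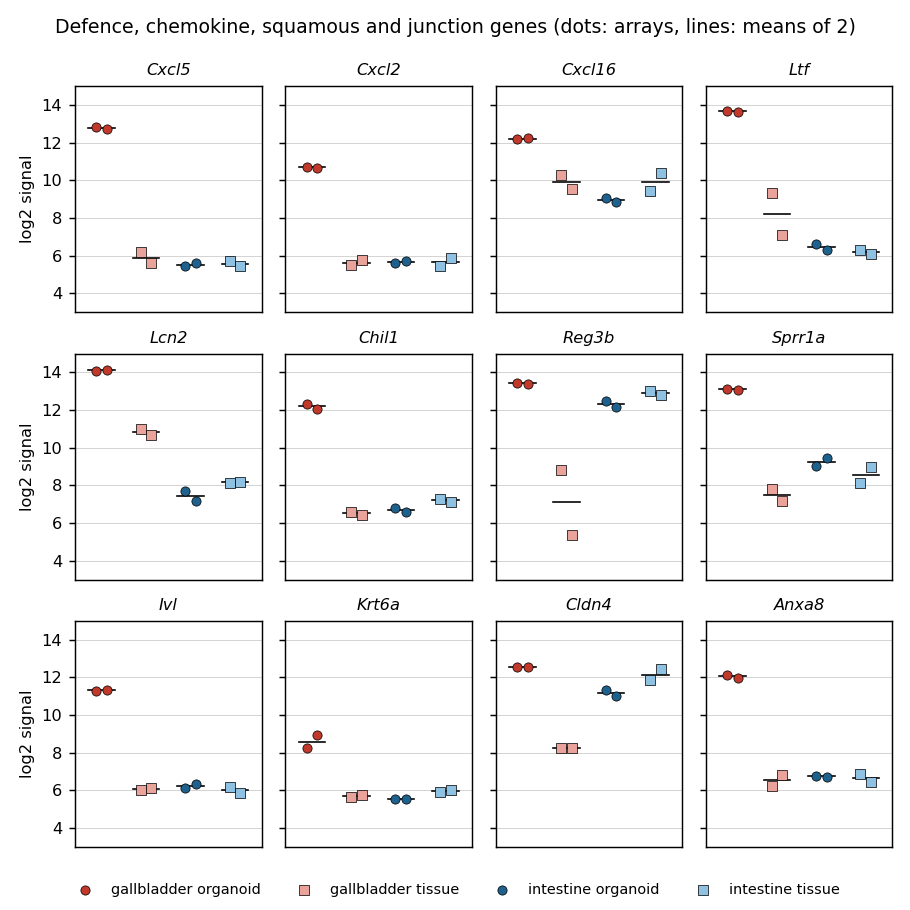
Log2 signal (y axis) of 12 chemokine, defence, squamous, junction and fetal-like genes, with 1 dot an array and a line at the mean of 2. Gallbladder organoids (dark red) lie above all other arrays in all 12 panels, and in Reg3b and Cldn4 the intestine samples are also high.

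The strongest negative interactions came from liver-type metabolic genes that were high in gallbladder tissue and low in gallbladder organoids. Of 25 hepatocyte genes 25 were called lower and 0 higher, with a median of -5.77. All 25 fell in gallbladder culture, while in small intestine 1 rose and 3 fell. Alb was at 6.60 and 6.33 in gallbladder organoids, 14.30 on both gallbladder tissue arrays, 8.36 and 7.96 in intestine organoids, and 8.05 and 9.90 in intestine tissue. Serpina1c, a secreted protease inhibitor of the liver, was at 4.90 and 4.48 in gallbladder organoids, 12.60 and 14.19 in gallbladder tissue, 5.31 and 5.34 in intestine organoids, and 6.19 and 6.73 in intestine tissue. Their interactions were -7.02 ± 0.63 and -7.57 ± 0.61, and both genes were near 14 on the liver tissue arrays. Ces1c and Cyp2e1, both detoxifying enzymes of liver, and Fbp1, an enzyme of glucose synthesis, had interactions of -7.77 ± 0.53, -7.64 ± 0.74 and -7.57 ± 0.72.

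The median of the hepatocyte list was 6.49 and 6.33 in gallbladder organoids, 11.79 and 13.26 in gallbladder tissue, 6.70 and 6.56 in intestine organoids, and 6.79 and 7.59 in intestine tissue. Genes at least 2 log2 units higher in liver tissue than in liver organoids made up 385 (13.5%) of the lower genes, 58 (1.3%) of the higher genes and 970 (4.9%) of all genes. How far hepatocyte RNA in gallbladder tissue contributed to each of these genes was not tested.

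Xenobiotic metabolism moved with it. Of 29 such genes 17 were called lower and 1 higher, with a median of -2.03. Some of them were also intestinal genes that intestine organoids kept. Cyp3a11, the chief drug-oxidising P450 of liver and gut, was at 4.88 and 4.60 in gallbladder organoids, 11.79 and 13.01 in gallbladder tissue, 12.02 and 11.63 in intestine organoids, and 11.47 and 12.83 in intestine tissue. Adh1, an alcohol dehydrogenase, was at 6.46 and 6.33 in gallbladder organoids, 12.54 and 13.86 in gallbladder tissue, 13.92 and 13.99 in intestine organoids, and 13.11 and 13.94 in intestine tissue. The interactions of -7.34 ± 0.62 and -7.24 ± 0.52 thus set a loss in gallbladder against no called change in small intestine.

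Other losses concerned genes that liver tissue did not hold at such levels. Cyp2c65 was at 6.66 and 7.01 in gallbladder organoids, 11.83 and 11.08 in gallbladder tissue, 12.67 and 12.83 in intestine organoids, 11.75 and 12.88 in intestine tissue, and 6.12 and 5.29 in liver tissue. Cyp4a12a, a fatty acid hydroxylase, was at 5.28 and 5.40 in gallbladder organoids, 12.57 and 13.17 in gallbladder tissue, 5.13 and 5.01 in intestine organoids, 5.27 and 5.19 in intestine tissue, and 5.73 and 5.74 in liver tissue. Both are enzymes whose gallbladder signal was far above that of the liver tissue arrays. Their interactions were -5.05 ± 0.53 and -7.37 ± 0.28.

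Ion and water transport genes were called in both directions, at shares near those of all genes. Of 29, 6 were called higher and 5 lower, against 22.3% and 14.3% of all genes. Their median was 0.05, close to the 0.13 of all genes. Slc26a3, the chloride-bicarbonate exchanger of absorptive gut epithelium, was at 5.31 and 5.13 in gallbladder organoids, 12.42 and 12.54 in gallbladder tissue, 11.26 and 11.33 in intestine organoids, and 12.09 and 11.84 in intestine tissue. Gallbladder organoids alone were low, at the level of liver tissue (5.40 and 5.20), and the interaction was -6.59 ± 0.24 (adjusted p = 2.43e-07). Aqp1, a water channel, was at 8.38 and 8.25 in gallbladder organoids, 13.12 and 12.81 in gallbladder tissue, 11.96 and 11.78 in intestine organoids, and 12.60 and 11.30 in intestine tissue. Aqp8, another water channel, had an interaction of -3.48 ± 0.47. Aqp7, which also carries glycerol, fell in both organs, by 1.73 in gallbladder and 5.05 in small intestine, so its interaction was positive at 3.33 ± 0.64.

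Promoters of Slc26a3 and Alb are shown because both genes were lower in gallbladder organoids than in gallbladder tissue and hold GTTAATNNT. This is the core of the site of HNF1, a transcription factor of liver, gut and bile duct epithelium. The part of hepatocyte RNA in the fall of Alb was not tested, and a match is no evidence of binding. The same windows were searched on both strands, and they lie at chr12:31438069-31438218 for Slc26a3 and chr5:90460720-90460869 for Alb, both on the plus strand.
Slc26a3: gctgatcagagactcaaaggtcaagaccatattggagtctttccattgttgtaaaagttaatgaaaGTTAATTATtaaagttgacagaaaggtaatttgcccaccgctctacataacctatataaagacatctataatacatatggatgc
Alb: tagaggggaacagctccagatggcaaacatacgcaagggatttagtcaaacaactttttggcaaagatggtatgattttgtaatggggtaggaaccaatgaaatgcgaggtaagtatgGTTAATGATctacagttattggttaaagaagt
The motif was in 4 of the 19 hepatocyte genes that the table lists, or 21.1%, and in 1.33% of all promoters. Slc26a3 fell by 0.67 in small intestine culture, against 7.26 in gallbladder culture.

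Wnt and stem cell genes leaned towards small intestine, although Lgr5 itself rose in both organs. Of 15 intestinal stem cell genes 9 were called lower and 1 higher, with a median of -1.22, and of 16 Wnt target genes 6 were called lower and 1 higher, with a median of -0.55. The lists share Ascl2, Axin2, Lgr5 and Tnfrsf19. Lgr5, the R-spondin receptor that marks crypt stem cells, was at 10.56 and 10.18 in gallbladder organoids, 6.54 and 7.90 in gallbladder tissue, 12.63 and 12.44 in intestine organoids, and 8.75 and 8.74 in intestine tissue. It rose by 3.16 in gallbladder and by 3.79 in small intestine, and the interaction of -0.63 had a 95% interval of -1.89 to 0.62. Without gallbladder tissue 1 the interaction was called (adjusted p = 0.0342), and without gallbladder tissue 2 it was 0.05.

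Smoc2, a matrix protein of crypt stem cells, was at 7.60 and 7.63 in gallbladder organoids, 8.45 and 8.80 in gallbladder tissue, 11.98 and 11.84 in intestine organoids, and 9.58 and 9.81 in intestine tissue. It fell in gallbladder and rose in small intestine, for an interaction of -3.22 ± 0.20. Ascl2, a Wnt-driven stem cell transcription factor, was at 6.79 and 6.70 in gallbladder organoids, 6.09 and 5.98 in gallbladder tissue, 10.20 and 10.18 in intestine organoids, and 7.22 and 7.74 in intestine tissue. Axin2, a feedback inhibitor of Wnt signalling, was at 8.55 and 8.41 in gallbladder organoids, 7.97 and 8.04 in gallbladder tissue, 11.05 and 11.03 in intestine organoids, and 9.35 and 9.27 in intestine tissue. Ascl2 and Axin2 thus rose in both organs, and by more in small intestine, with interactions of -2.0 ± 0.22 and -1.26 ± 0.15. Cdca7 and Msi1, a proliferation gene and an RNA-binding protein of crypt cells, had interactions of -2.30 ± 0.35 and -2.0 ± 0.19. Nkd1, another Wnt inhibitor, fell by 1.91 in gallbladder and by 0.47 in small intestine. The interaction of Olfm4, a secreted stem cell marker, was -1.49 with an interval of -3.29 to 0.31, and it was called without gallbladder tissue 2 (adjusted p = 0.0168). Sp5 was the 1 Wnt target called higher (1.16 ± 0.38), and that call ended without any single array other than the 2 of intestine tissue, with an adjusted p of up to 0.0944. Mex3a, the 1 stem cell gene called higher, at 0.90, was chosen after its values were seen, and leaving out 1 array gave 0 to 2 such genes.

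BMP target genes leaned to gallbladder, with 6 of 11 called higher and 1 lower and a median of 0.78. Smad7, an inhibitor that BMP and TGF-beta signals induce, was at 9.15 and 8.95 in gallbladder organoids, 8.19 and 8.30 in gallbladder tissue, 7.48 and 7.42 in intestine organoids, and 10.01 and 9.80 in intestine tissue. Smad6, the BMP-specific inhibitor, was at 8.68 and 8.66 in gallbladder organoids, 7.99 and 8.11 in gallbladder tissue, 7.85 and 7.52 in intestine organoids, and 9.60 and 8.87 in intestine tissue. In both, the order of the 2 organs in tissue was turned round in culture, and the interactions were 3.26 ± 0.24 and 2.16 ± 0.31. Id1 and Id3, direct BMP targets, had 1.58 ± 0.41 and 1.80 ± 0.47, calls that ended without gallbladder organoid 1 (adjusted p = 0.0572 and 0.0503), and for Id3 also without intestine organoid 1 (0.0538).

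The cell cycle rose in both cultures. All 42 measured cell cycle genes rose in gallbladder and 41 in small intestine, with median changes of 1.88 and 1.58. In the interaction 16 were called higher and 3 lower, with a median of 0.26, so most were not called. The lower count was 7 without gallbladder tissue 2 and 5 without intestine tissue 2. Ccna2, cyclin A2, was at 10.54 and 10.73 in gallbladder organoids, 7.60 and 7.14 in gallbladder tissue, 12.06 and 12.17 in intestine organoids, and 10.70 and 10.97 in intestine tissue. Its level stayed highest in intestine organoids, while the change was larger in gallbladder (3.26 against 1.28, interaction 1.98 ± 0.29). Ccnb2, cyclin B2, had an interaction of 1.91 ± 0.23. Pole, a DNA polymerase subunit, was called the other way at -1.56 ± 0.13. Top2a, a topoisomerase of dividing cells, had 1.52 from its brightest probe set and 0.41, not called (adjusted p = 0.232), from the mean of its probe sets, which thus disagree. Mki67, the proliferation marker, had 0.50 with an interval of -0.20 to 1.21, and it was called without gallbladder tissue 1 (adjusted p = 0.0137).

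Genes of the intestinal lineages were called in both directions, by different paths. Of 29 enterocyte genes 11 were called higher and 6 lower, with a median of 0.72. In small intestine culture 19 fell and 0 rose, against 15.6% and 20.2% of all genes. Lct, lactase of the villus brush border, was at 6.92 and 7.0 in gallbladder organoids, 6.10 on both gallbladder tissue arrays, 8.22 and 7.76 in intestine organoids, and 13.19 and 13.26 in intestine tissue, for an interaction of 6.10 ± 0.21. The enterocyte genes called lower included Fabp1 and Apoa1, a fatty acid carrier and a lipoprotein that liver also makes. Fabp1 was at 4.91 and 5.17 in gallbladder organoids, 10.65 and 13.42 in gallbladder tissue, 12.67 and 13.02 in intestine organoids, and 11.32 and 13.63 in intestine tissue. The lower count was 11 without gallbladder tissue 1, the array with the lower hepatocyte signal. Fabp6, at 4.13 ± 2.46, was not called (adjusted p = 0.214), and its size came from intestine tissue 1.

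Goblet cell genes had 4 of 14 called higher and 1 lower, against 22.3% and 14.3% of all genes. The higher count was larger without intestine tissue 2. It was smaller without gallbladder organoid 1 or 2, intestine organoid 1 or 2, or gallbladder tissue 2. Muc2, the gel-forming mucin of goblet cells, was at 6.86 and 6.84 in gallbladder organoids, 6.25 and 6.30 in gallbladder tissue, 11.28 and 10.64 in intestine organoids, and 13.82 and 12.80 in intestine tissue. Clca1, a secreted mucus protease, and Zg16, a mucus lectin, had interactions of 3.46 ± 0.29 and 1.72 ± 0.29. Tff3, a trefoil peptide, was at 9.33 and 9.64 in gallbladder organoids, 12.30 and 11.15 in gallbladder tissue, 13.33 and 13.18 in intestine organoids, and 14.20 and 14.03 in intestine tissue. It fell in gallbladder, yet its interaction of -1.38 missed the threshold (adjusted p = 0.0562), and without gallbladder tissue 2 it passed (0.00514).

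In the Paneth cell list 5 of 11 genes were called higher and 2 lower. Reg3g, an antimicrobial lectin like Reg3b, was at 13.42 and 13.28 in gallbladder organoids, 9.34 and 5.80 in gallbladder tissue, 12.64 and 12.38 in intestine organoids, and 12.32 and 11.99 in intestine tissue. Nupr1, a stress-induced chromatin protein, had an interaction of 2.79 ± 0.36. These genes rose in gallbladder, whereas Spink1, a trypsin inhibitor, reached 3.36 ± 0.16 through a fall by 3.38 in small intestine. The lower count lay between 1 (without gallbladder organoid 1 or intestine organoid 1) and 4 (without intestine tissue 2).

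Enteroendocrine genes leaned to small intestine, with 7 of 19 called lower and 1 higher and a median of -0.85. In intestine culture 10 rose and 3 fell. Neurog3, the transcription factor that starts endocrine fate, was at 6.15 and 6.06 in gallbladder organoids, 6.60 and 5.67 in gallbladder tissue, 9.19 and 8.97 in intestine organoids, and 6.36 and 6.95 in intestine tissue. Tac1, the precursor of substance P, was at 4.35 and 4.54 in gallbladder organoids, 4.69 and 4.80 in gallbladder tissue, 10.54 and 9.95 in intestine organoids, and 6.88 and 7.16 in intestine tissue. Both rose in small intestine with no call in gallbladder, with interactions of -2.46 ± 0.38 and -3.53 ± 0.32. The lower count depended on single arrays: it was 3 without gallbladder organoid 1, gallbladder organoid 2 or intestine organoid 1, 4 without gallbladder tissue 1, and 10 without intestine tissue 2. The higher count was 3 without either intestine tissue array.

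Of 14 tuft cell genes, 4 were called lower and 1 higher, against 14.3% and 22.3% of all genes. Rgs13, a G protein regulator of tuft cells, was at 5.07 and 4.78 in gallbladder organoids, 7.49 and 7.76 in gallbladder tissue, 10.42 and 9.43 in intestine organoids, and 9.44 and 10.32 in intestine tissue. It fell by 2.70 in gallbladder, and the arrays of the 2 intestine groups overlapped (interaction -2.74 ± 0.50). Pou2f3, the transcription factor that tuft cells need, rose by 1.13 in small intestine, with no call in gallbladder (interaction -1.16 ± 0.20). The lower count was 2 without gallbladder organoid 2, intestine tissue 1, intestine organoid 1 or gallbladder tissue 2. The higher count was 3 without intestine tissue 1, 1 without gallbladder tissue 1, and 0 without any other array.

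Genes of biliary and gallbladder epithelium were called in both directions, more of them lower. Of 24, 4 were called higher and 8 lower, against 22.3% and 14.3% of all genes. Their median was 0.08. Krt19, a keratin of bile ducts, was at 13.09 to 13.52 on all 8 arrays, and its interaction of 0.10 had an interval of -0.27 to 0.48. Sox17, the transcription factor of gallbladder and bile duct fate, was at 10.00 and 9.95 in gallbladder organoids, 10.66 and 10.23 in gallbladder tissue, 6.51 and 6.28 in intestine organoids, and 7.21 and 7.07 in intestine tissue. Gallbladder organoids thus kept the level that set them apart from intestine, and the interaction of 0.28 had an interval of -0.30 to 0.86. Muc1 had 0.62 (-0.64 to 1.89), and it was called without intestine tissue 1 (adjusted p = 0.00118). Cyp2f2, a P450 of airway and liver, was the biliary list member with the largest loss, at 7.09 and 7.29 in gallbladder organoids, 13.28 and 13.95 in gallbladder tissue, 6.68 and 6.77 in intestine organoids, and 7.65 and 7.27 in intestine tissue. It was also at 14.04 and 13.87 in liver tissue.

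Epcam, the adhesion protein of epithelial cells, was at 12.65 and 12.54 in gallbladder organoids, 11.86 and 11.24 in gallbladder tissue, 12.50 and 12.60 in intestine organoids, and 13.05 and 12.67 in intestine tissue (interaction 1.35 ± 0.26). Vil1, villin of the brush border, had 1.88 ± 0.28. Krt7, a keratin of ducts, had 1.02 ± 0.31 (adjusted p = 0.0277), and leaving out any of 6 arrays, all but intestine tissue 2 and gallbladder tissue 1, ended the call, with an adjusted p of up to 0.0881. Cdx2, at 8.54 and 8.74 in gallbladder organoids and 7.02 and 7.35 in gallbladder tissue, rose by 1.46 in gallbladder and stayed more than 3 log2 units below the intestine organoids. Its interaction of 1.04 ± 0.33 (adjusted p = 0.0346) was likewise lost without any of 6 arrays, all but intestine tissue 2 and gallbladder tissue 2, at an adjusted p of up to 0.11.

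Among 22 regional transcription factors 4 were called higher and 4 lower, against 22.3% and 14.3% of all genes. Klf4, of differentiated epithelium, was at 9.88 and 9.92 in gallbladder organoids, 9.14 and 8.66 in gallbladder tissue, 9.44 and 9.53 in intestine organoids, and 12.14 and 11.99 in intestine tissue. It rose in gallbladder and fell in small intestine, so organoids of both organs lay within 1 log2 unit of each other (interaction 3.58 ± 0.34). Isx, an intestinal homeobox gene, had 3.29 ± 0.55 through a loss in small intestine. Hnf4g, an enterocyte nuclear receptor, was at 5.65 and 5.85 in gallbladder organoids, 8.83 and 8.09 in gallbladder tissue, 12.13 and 12.12 in intestine organoids, and 12.71 and 12.98 in intestine tissue (interaction -1.99 ± 0.29). The higher count was 2 without gallbladder organoid 1 or 2 or intestine organoid 1 or 2.

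Of 20 gastric and mucin genes 5 were called higher and 5 lower, with a median of 0.20. Anxa10, an annexin of stomach epithelium, was at 8.52 and 8.54 in gallbladder organoids, 10.55 and 9.69 in gallbladder tissue, 9.23 and 9.17 in intestine organoids, and 6.02 and 6.41 in intestine tissue. Pgc, pepsinogen C of the stomach, was at 6.49 and 6.81 in gallbladder organoids, 8.90 and 8.27 in gallbladder tissue, 9.01 and 7.40 in intestine organoids, and 6.14 and 7.12 in intestine tissue. Both fell in gallbladder culture and rose in intestine culture, with interactions of -4.58 ± 0.34 and -3.51 ± 0.66. Gkn3, a gastrokine, had -3.79 ± 0.72 through a rise by 3.17 in small intestine. Muc4, a membrane mucin, had -3.61 ± 0.53 through a fall by 2.73 in gallbladder. The higher count was 3 without gallbladder organoid 2.

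Smooth muscle genes fell in both cultures, 19 of 19 in each, and 15 were called lower and 1 higher, with a median of -1.24. Tagln, a smooth muscle actin-binding protein, was at 6.89 and 6.92 in gallbladder organoids, 12.66 and 12.16 in gallbladder tissue, 6.48 and 6.37 in intestine organoids, and 9.90 and 10.02 in intestine tissue. Acta2, smooth muscle actin, was at 7.52 and 7.57 in gallbladder organoids, 14.26 and 14.01 in gallbladder tissue, 7.45 and 7.20 in intestine organoids, and 12.96 and 12.56 in intestine tissue. Organoids of both organs lay low, and gallbladder tissue lay above intestine tissue, so the interactions were -1.97 ± 0.21 and -1.16 ± 0.23.

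Fibroblast and matrix genes also fell in both cultures, 19 of 19 in each, and 12 were called lower with a median of -0.91. Vim, an intermediate filament of mesenchyme, was at 7.92 on both gallbladder organoid arrays, 13.78 and 13.64 in gallbladder tissue, 10.43 and 10.04 in intestine organoids, and 11.79 and 11.71 in intestine tissue. Fbln1, a matrix protein, was at 7.82 and 8.04 in gallbladder organoids, 11.23 and 10.58 in gallbladder tissue, 11.34 and 11.28 in intestine organoids, and 12.06 and 12.30 in intestine tissue. These 2 genes stayed high in intestine organoids. Postn and Lum, matrix proteins of fibroblasts, were at 5.76 and 5.88 and at 4.46 and 4.58 there, with interactions of -4.04 ± 0.37 and -2.68 ± 0.17.

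Among 16 endothelial genes 6 were called lower and 1 higher, with a median of -0.62. Lyve1, a hyaluronan receptor of lymphatic vessels, was at 6.76 and 7.25 in gallbladder organoids, 10.66 and 10.01 in gallbladder tissue, 9.36 and 9.51 in intestine organoids, and 9.20 and 9.25 in intestine tissue (interaction -3.53 ± 0.32). The lower count was 3 without gallbladder organoid 1, intestine organoid 1 or intestine organoid 2, and 10 without gallbladder tissue 1. Of 10 adipocyte genes, 2 were called lower, between 1 (without gallbladder organoid 1, intestine organoid 1 or intestine organoid 2) and 5 (without gallbladder tissue 1). Car3, a carbonic anhydrase of fat, muscle and liver, had -3.04 ± 0.60.

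Lymphocyte genes ran the other way. Of 19 B and T cell genes 17 were called higher and 1 lower, with a median of 2.19, and 18 fell in small intestine culture while 2 fell in gallbladder culture. Jchain, the joining chain of secreted antibody, was at 4.96 and 5.16 in gallbladder organoids, 7.27 and 7.95 in gallbladder tissue, 4.92 and 4.95 in intestine organoids, and 10.16 and 11.43 in intestine tissue. Gzma, a protease of killer lymphocytes, was at 5.08 on both gallbladder organoid arrays, 5.08 and 5.05 in gallbladder tissue, 4.85 and 4.94 in intestine organoids, and 8.03 and 10.38 in intestine tissue. The signal was thus in intestine tissue, more in replicate 2 than in replicate 1, and the interactions were 3.31 ± 0.60 and 4.32 ± 0.76. With the dimmest 40% of genes left out, 5 were called higher.

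Of 20 myeloid genes 7 were called higher and 2 lower, and the higher count was 11 without intestine tissue 1 and 4 without gallbladder organoid 2 or intestine organoid 2. The lower count was 4 without intestine tissue 2. Cd14, the endotoxin co-receptor, was at 12.62 and 12.54 in gallbladder organoids, 9.78 and 8.99 in gallbladder tissue, 8.25 and 8.18 in intestine organoids, and 7.51 and 7.23 in intestine tissue. It rose in gallbladder culture, where Ptprc, the pan-leukocyte marker, was at 6.26 and 6.25, against 8.12 and 8.49 in gallbladder tissue. Cd68, a lysosomal glycoprotein of macrophages, rose by 1.12 in gallbladder and fell by 1.52 in small intestine. Lyz2 was at 6.30 and 6.62 in gallbladder organoids, 10.27 and 10.80 in gallbladder tissue, 11.48 and 11.82 in intestine organoids, and 11.95 and 12.54 in intestine tissue, and whether its probe set also reads the Paneth cell gene Lyz1 was not tested. MHC class II genes had 3 of 7 called higher and 0 lower, and 6 without intestine tissue 1. H2-Ab1, an MHC class II chain, fell by 4.0 in gallbladder and 5.64 in small intestine.

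Pancreatic acinar genes had 1 of 17 called higher (Zg16, which the goblet list also holds) and 0 lower, yet a median of 1.77. Cpa1, a pancreatic carboxypeptidase, was at 6.82 and 6.85 in gallbladder organoids, 6.63 and 6.52 in gallbladder tissue, 6.58 and 6.73 in intestine organoids, and 6.79 and 13.52 in intestine tissue. Without intestine tissue 1, which leaves only the array with the acinar signal, 15 were called higher, and without intestine tissue 2, 3 were called higher and 5 lower. Ctrb1, chymotrypsinogen, was also high in gallbladder tissue, at 8.88 and 9.37 in gallbladder organoids, 13.48 and 13.69 in gallbladder tissue, 9.65 and 9.63 in intestine organoids, and 7.40 and 13.76 in intestine tissue. Of 13 neural and glial genes 6 were called higher and 1 lower. Stmn2, a tubulin-binding protein of neurons, was at 8.41 and 8.52 in gallbladder organoids, 7.18 and 6.75 in gallbladder tissue, 5.58 and 5.44 in intestine organoids, and 8.41 and 7.98 in intestine tissue, so it rose in gallbladder organoids too. Neither of the 2 measured erythroid genes was called.

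**Figure D4:**
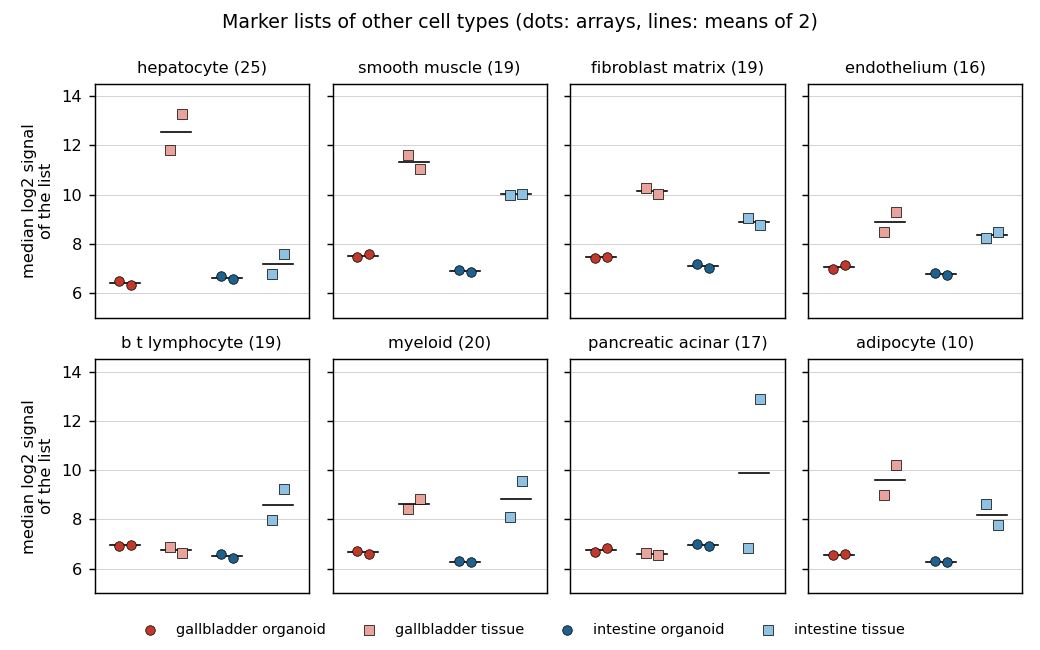
Median log2 signal (y axis) over the members of 8 marker lists, with 1 dot an array, a line at the mean of 2, and the number of measured genes in brackets. The hepatocyte median is highest in gallbladder tissue (11.79 and 13.26), muscle and fibroblast medians are higher in gallbladder than in intestine tissue, and the acinar median is high on 1 intestine tissue array (12.89).

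Interferon response genes had 6 of 20 called higher and 2 lower, against 22.3% and 14.3% of all genes, with a median of 0.46. With 1 array left out, the higher count was largest without intestine tissue 1 and smallest without gallbladder organoid 1. Irf7, a regulator of interferon genes, was at 9.02 and 8.96 in gallbladder organoids, 9.88 and 8.55 in gallbladder tissue, 8.16 and 7.97 in intestine organoids, and 11.28 and 11.94 in intestine tissue. Ifit1, an interferon-induced RNA binder, was at 8.10 and 7.95 in gallbladder organoids, 8.98 and 8.12 in gallbladder tissue, 6.40 and 6.35 in intestine organoids, and 9.22 and 11.47 in intestine tissue. Both fell in small intestine with no call in gallbladder, and lymphocyte genes were also highest in intestine tissue. The part of those cells was not tested.

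Of 17 serine synthesis and ATF4 genes 8 were called higher and 1 lower, with a median of 1.00, while 14 rose in gallbladder and 10 in small intestine. The higher count was 5 without intestine organoid 1. Cth, which makes cysteine from cystathionine and is abundant in liver, was the lower 1, at 7.92 and 8.01 in gallbladder organoids, 9.73 and 12.16 in gallbladder tissue, 11.70 and 11.65 in intestine organoids, and 11.09 and 11.51 in intestine tissue. Its interaction was -3.35 ± 0.79, and -2.14 without gallbladder tissue 2. Of 22 growth factor and receptor genes 2 were called higher and 5 lower, with a median of 0.02, against 22.3% and 14.3% of all genes. Dusp6, a phosphatase that ERK signalling induces, was at 11.45 and 11.41 in gallbladder organoids, 8.93 and 9.28 in gallbladder tissue, 10.06 and 10.15 in intestine organoids, and 9.82 and 11.78 in intestine tissue (interaction 3.02 ± 0.79). Fgfr3, an FGF receptor, fell in gallbladder alone (interaction -2.73 ± 0.33). Without gallbladder tissue 1, 9 of these genes were called lower. The higher count was 4 without intestine tissue 2 and 1 without any 1 of the 4 organoid arrays.

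Immediate early and heat shock genes had 5 of 17 called higher and 0 lower, with a median of 1.42. Their count was 9 in a fit to the 8 arrays compared alone, and 3 without gallbladder organoid 1 or 2, intestine organoid 1 or 2, intestine tissue 2 or gallbladder tissue 2. Junb, an AP-1 subunit, had an interaction of 2.15 that was not called with all 14 arrays (adjusted p = 0.114) and was called with 8 (0.0021). Why the counts differ was not tested. Hypoxia and glycolysis genes had 4 of 17 called higher and 1 lower, a higher share near the 22.3% of all genes. Hk2, a hexokinase of growing cells, was at 9.19 and 9.06 in gallbladder organoids, 6.82 and 6.75 in gallbladder tissue, 8.38 and 8.63 in intestine organoids, and 8.95 and 7.99 in intestine tissue (interaction 2.30 ± 0.36). Pdk1, which holds back pyruvate oxidation, ran the other way at -1.62 ± 0.20.

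Clock genes had 0 of 15 called higher and 2 lower. Per2, a clock repressor, fell in gallbladder alone (interaction -1.95 ± 0.49), and 2 clock genes were called higher in the fit to 8 arrays. None of 15 cholesterol synthesis genes was called in limma's interaction, at a median of -0.12. Without gallbladder tissue 1, 5 were called lower, and without gallbladder tissue 2, 3 were called higher. Idi1, an isomerase of that pathway, was at 10.94 and 10.78 in gallbladder organoids, 9.97 and 12.26 in gallbladder tissue, 11.69 and 12.14 in intestine organoids, and 10.31 and 10.58 in intestine tissue. The 2 gallbladder tissue arrays thus bracketed the organoids, and the interaction of -1.73 had an adjusted p of 0.10.

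**Figure D5:**
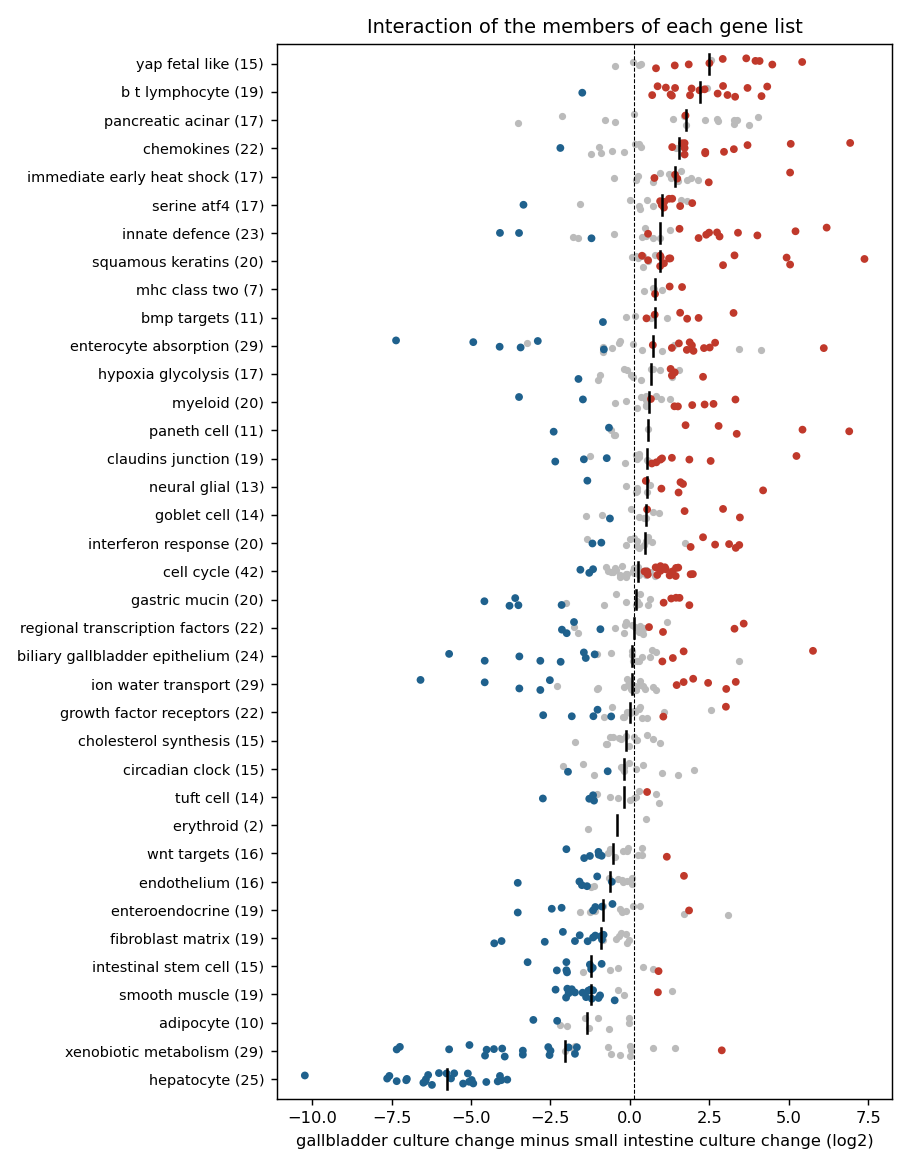
Interaction (x axis, log2, gallbladder culture change minus small intestine culture change) of each measured member of 37 gene lists, with the number measured in brackets. Red and blue dots were called higher and lower, grey dots were not called, black bars are list medians, and the dashed line is the median of all genes, 0.13.

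A set of genes had similar estimated changes in both organs, though the absence of a call does not show that the changes were equal. Of the genes that rose in both organs, 1435 had no called interaction and one below 0.5 in size, and of those that fell in both, 491 did. Genes that rose in both numbered 2189, or 33.6% of the gallbladder list and 54.4% of the small intestine list, and 1039 fell in both (34.2% and 33.5%). Sox9, a progenitor transcription factor, was at 12.07 and 12 in gallbladder organoids, 9.43 and 9.02 in gallbladder tissue, 11.78 and 11.61 in intestine organoids, and 9.18 and 9.31 in intestine tissue. It rose by 2.81 and 2.44, and the interaction of 0.37 had an interval of -0.33 to 1.07. Myc, a growth-promoting Wnt target, rose by 2.65 in gallbladder and 2.72 in small intestine. Its interaction interval of -1.48 to 1.34 is too wide to call these changes alike. Edn1, the vasoactive peptide endothelin, and Nt5dc2, a nucleotidase-like protein, rose by 3.05 and 2.57 in gallbladder, against 2.59 and 2.96 in small intestine.

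Car4, a membrane carbonic anhydrase of absorptive epithelium, was at 6.18 and 6.44 in gallbladder organoids, 12.15 and 12.39 in gallbladder tissue, 6.72 and 6.93 in intestine organoids, and 12.53 and 13.08 in intestine tissue. It fell by 5.96 and 5.98, and its interval was -0.63 to 0.67. Srgn, a proteoglycan of blood cell granules, fell by 5.31 and 5.74. Gp2, a glycoprotein of M cells and pancreas, and Wfdc17, a gene of activated myeloid cells, fell by 4.15 and 3.59 in gallbladder and by 4.22 and 3.86 in small intestine. Their interaction intervals, -2.07 to 2.21 and -1.92 to 2.47, are too wide to call the changes alike.

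The tissue and organoid gaps between the organs restate the interaction from the other side. Among the 4450 higher genes the median gap of gallbladder over intestine was 0.34 in organoids and -0.44 in tissue, and among the 2847 lower genes it was -0.34 in organoids and 0.70 in tissue. The gap changed sign in 67.4% of the higher and 53.2% of the lower genes, against 43.1% of all genes. It was wider in culture in 44.5% of the higher and 39.2% of the lower genes, against 44.9% of all. The spread of the organ gap across genes was 0.97 in organoids and 1.09 in tissue (SD).

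Liver organoids and liver tissue, which take no part in the interaction, were used to see how the genes in opposite motion fared in a culture of another organ. Of the 632 genes up in gallbladder and down in small intestine, both liver organoid arrays lay above both liver tissue arrays for 360 (57.0%), against 37.3% of all genes, and below them for 170 (26.9%), against 33.8%. Of the 308 genes with the opposite pattern, 157 (51.0%) lay above and 111 (36.0%) below. Krt20 was at 11.94 and 11.96 in liver organoids and 6.01 and 5.96 in liver tissue, and Ivl was at 12.35 and 11.86 in liver organoids and 6.32 and 6.22 in liver tissue. Both were thus higher in organoids than in tissue in liver as in gallbladder. Cxcl5, Reg3b and Cdh17 were added here after their liver values were seen. Cxcl5 was at 10.77 and 11.57 in liver organoids and 5.47 and 5.55 in liver tissue. Reg3b was at 9.47 and 9.35 against 5.90 and 5.94, and Cdh17 at 11.47 and 11.14 against 6.22 and 5.99. Their rise in culture was thus not particular to gallbladder. Chil1, at 6.91 and 7.33 in liver organoids and 7.32 and 7.20 in liver tissue, overlapped there.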

How the data were processed

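RNA from 14 samples was measured on a mouse Affymetrix gene array. The deposited signals of probe sets are on a log2 scale, normalized by the authors with RMA, per the submitters' processing notes. No raw scanner values were used. Of 35556 probe sets 21789 had 1 gene symbol, 1621 several and 12146 none, and 21698 of those with 1 symbol were matched to the reference. The brightest probe set stood for each of the 999 genes with more than 1, which left 19938 genes.

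limma 3.58.1 in R 4.3.3 was fitted to all 14 arrays with a mean per group, and interaction and organ changes were tested with eBayes. P-values were adjusted by Benjamini-Hochberg over all genes and called below 0.05. Samples were grouped by their labels, 2 arrays a group, which limits the precision. Replicate numbers did not pair the samples (r of deviations between -0.03 and 0.053). An exact permutation test of 2 against 2 cannot go below 0.333. On simulated arrays, 2, 13, 42 and 43 of 50 genes changed by 0.5, 1, 2 and 3 log2 units were called, with 9 false calls among 109. The simulation gave a gene the same spread in every group and few genes an interaction. Real replicates spread by 0.404 and 0.368 in gallbladder and intestine tissue, against 0.098 and 0.128 in their organoids. These rates therefore do not carry over to the real arrays.

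The gene lists, members and naming rule were chosen with earlier results of these data known. Named were the 12 largest interactions a direction, 8 genes a direction called oppositely in the 2 organs, 4 a direction moving alike, the 4 largest of each list, and 15 marker genes. Alternatives were quantile normalization, centring, array weights, a filter on dim genes, the mean of probe sets, a variance trend, a minimum difference, the 8 arrays alone, a replicate block and leaving out each array. Leaving out genes at least 2 log2 units higher in liver tissue than in liver organoids was chosen after seeing the data. Figures were drawn with Python 3.11.15 and matplotlib 3.10.9.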

Additional observations from a re-analysis of the deposited data

Results flagged for a closer look

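The organs moved in opposite directions, with the difference itself called by limma, in 632 genes up in gallbladder and down in small intestine and in 308 genes down in gallbladder and up in small intestine. Of the first set, the named genes were Ly6m (interaction 8.45), Krt20 (7.38), Bst1 (7.24), Lgals3 (5.76), Igfbp3 (5.59), Fos (5.04), Pilra (4.91) and Osmr (3.88). Of the second set they were Cyp2c70 (-8.89), Cyp2c38 (-8.63), Rgn (-7.57), Cpn1 (-7.53), Nrn1 (-6.08), Ttr (-5.77), Sult1c2 (-5.38) and Cfi (-5.12). These genes were selected for this pattern, so its strength in them is a description.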

How the results depend on the processing

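With a minimum difference of 1 log2 unit, interaction calls fell to 445 higher and 374 lower, gallbladder calls to 504 higher and 703 lower, and small intestine calls to 350 higher and 421 lower, by that test's construction. Without the dimmest 40% of genes 2015 genes fell in gallbladder, with fewer genes tested, and without intestine organoid 2, 2035 fell in small intestine. With 1 array left out at a time the ranges were 2979 to 4582 (interaction higher), 1939 to 3235 (interaction lower), 4515 to 7020 (gallbladder higher), 2098 to 3293 (gallbladder lower), 3012 to 4369 (small intestine higher) and 2035 to 3638 (small intestine lower). Quantile normalization gave 3605 higher and 3026 lower interactions, a share of 54.4% higher against 61.0%, and moved the median of all genes to 0.06. The replicate block gave 4412 higher and 2818 lower interactions, and among the named genes it ended the calls of Foxa1 (adjusted p = 0.0554) and Snap25 (0.0546). Without the genes high in liver tissue 4372 interactions were higher and 2452 lower. The sign turned only in interactions that were not called. Under quantile normalization these were Car4 (-0.46), Gp2 (-0.11), Krt19 (-0.28) and Sox17 (-0.08). With 1 array left out at a time the sign also turned, over ranges of -0.77 to 0.62 in Myc, -0.80 to 0.01 in Nt5dc2, -0.26 to 0.30 in Car4, -0.03 to 0.88 in Srgn, -1.10 to 1.23 in Gp2, -1.16 to 1.71 in Wfdc17, -0.05 to 6.80 in Cpb1, -0.29 to 2.17 in Msmo1, -1.63 to 0.16 in Hmgcs1, -1.31 to 0.05 in Lgr5, -0.04 to 0.24 in Krt19 and -0.22 to 1.46 in Muc1. The cause of these changes was not tested. Signals above 14 on both arrays of a group (Apoa1, Zg16, Tff3, Lcn2, Alb, Acta2) are near the top of the scale, so their differences may be understated.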
